A study of Mus musculus with 15 samples.

Results

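The collagen genes of mouse are the 44 genes whose symbol is Col, a chain type number, the letter a and a chain number. They were sorted by the assembly their protein is known to form into 11 fibrillar genes, 6 type IV genes of basement membranes and 27 other genes. Probes of a microarray were tied to them by RefSeq accession, and the brightest probe stood for each gene. Of the 44 genes, 42 had a probe, and 28 had a probe well above background on every array of at least 1 tissue group. These 28 genes, of which 8 were fibrillar, 6 were type IV and 14 were other collagens, were tested among 15620 genes in all.

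RNA levels had been measured in 4 groups of samples from female FVB/N mice, 1 array each. Neo-liver (4 samples) was ectopic liver tissue dissected out of the kidneys of host mice. Host liver (4 samples) and host kidney (4 samples) came from such hosts too. All hosts had been given 2 intraperitoneal doses of monocrotaline, a plant alkaloid toxic to liver, at 70 mg/kg and 2 weeks apart when 7 to 9 weeks old. The kidney capsule then received 1000000 hepatocytes, 2 weeks after the second dose, from FVB/N-hA1AT donors of 8 to 20 weeks, which carry a human α1-antitrypsin transgene. The labels do not give the share of donor and host cells in neo-liver. The 3 host tissues were taken at days 250 to 300, at 48 to 55 weeks of age. Control liver (3 samples) came from normal mice of 20 weeks, so injury, transplant and age cannot be told apart in a comparison with it. The 3 control livers serve in both comparisons with control liver below. The labels do not say whether samples were pooled from several animals.

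Collagens are the triple-helical proteins that give tissue its scaffold. Fibrillar collagens build the fibrils of connective tissue, type IV collagens build the sheet-like network under epithelia and around vessels, and the remaining types decorate fibrils, form other networks or sit in cell membranes. In liver, fibrillar collagen is made mainly by hepatic stellate cells and portal fibroblasts, and type I and type III collagen accumulate in fibrosis. In kidney, the α3, α4 and α5 chains of type IV collagen form the network of the mature glomerular basement membrane and are made there by podocytes.

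Each value below is a log2 level, which is the log2 signal of a probe minus that array's 75th percentile, so 0 is the 75th percentile of the array. Levels of different genes come from different probes and are not set against each other. In signal units that percentile ranged from 416 to 676 (neo-liver), 287 to 448 (host liver), 561 to 875 (host kidney) and 390 to 424 (control liver). The 10 hepatocyte markers were above background on every neo-liver array, and their summed level there, in multiples of the 75th percentile, was 3222 to 4985 against 51.3 to 140.1 in host kidney. Kidney markers were present in neo-liver as well. The kidney share of an array was read from 42 epithelial markers that exceeded control liver by 8-fold or more in host kidney, as their median signal in percent of the kidney signal. It was 17.8%, 39.0%, 16.9% and 30.5% on neo-liver arrays 1 to 4, and 0.0235% to 0.0343% in host liver. Neo-liver and control liver arrays shared 1 slide, while host liver took 2 further slides and host kidney another, so only neo-liver and control liver were compared within 1 slide, and tissue and slide cannot be told apart in comparisons with host liver or host kidney.

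Neo-liver RNA held more collagen transcript of several kinds than host liver or control liver RNA. A gene was called higher or lower where limma's Benjamini-Hochberg adjusted p over all 15620 genes was under 0.05. Against control liver, 18 of the 28 tested collagen genes were called higher and 3 lower in neo-liver, while 20.4% of all genes were called higher and 29.7% lower. The median log2 difference was 1.67 over the collagen genes and -0.15 over all genes. Against host liver, 17 were called higher and 3 lower in neo-liver, beside 17.1% and 31% of all genes. The median was 1.14 over the collagen genes and -0.21 over all genes. With the kidney share subtracted from the neo-liver arrays, 16 were called higher and 6 lower against control liver, and 10 higher and 4 lower against host liver. Subtraction moved the median of all genes to -0.67 against control liver and -0.73 against host liver. The share of all genes called after it was not counted. The 16 include Col4a3, Col8a1 and Col26a1, whose subtracted values were in part held at a floor above control livers that were below background. Col8a1 is among the 10 as well, and no host liver array was above background for it.

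In host liver against control liver, 6 collagen genes were called higher and 1 lower beside 13.3% and 11.2% of all genes, with a median of 0.40 beside 0.07. Without control liver array 3, 2 were called higher in host liver. Against host kidney, neo-liver had 11 called higher and 7 lower, beside 23.2% and 29.4% of all genes. Host liver against host kidney had 8 called higher and 11 lower, beside 39.5% and 31.2%. In whole tissue, fewer cells of a type and less RNA per cell cannot be told apart. Col5a2 and Col8a2 were kept through neo-liver alone and Col9a1 through host kidney alone, so these counts describe the 28 genes that passed the background filter and not the whole family. The counts called higher in neo-liver include Col5a2 and Col8a2 in each comparison.

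**Figure D1:**
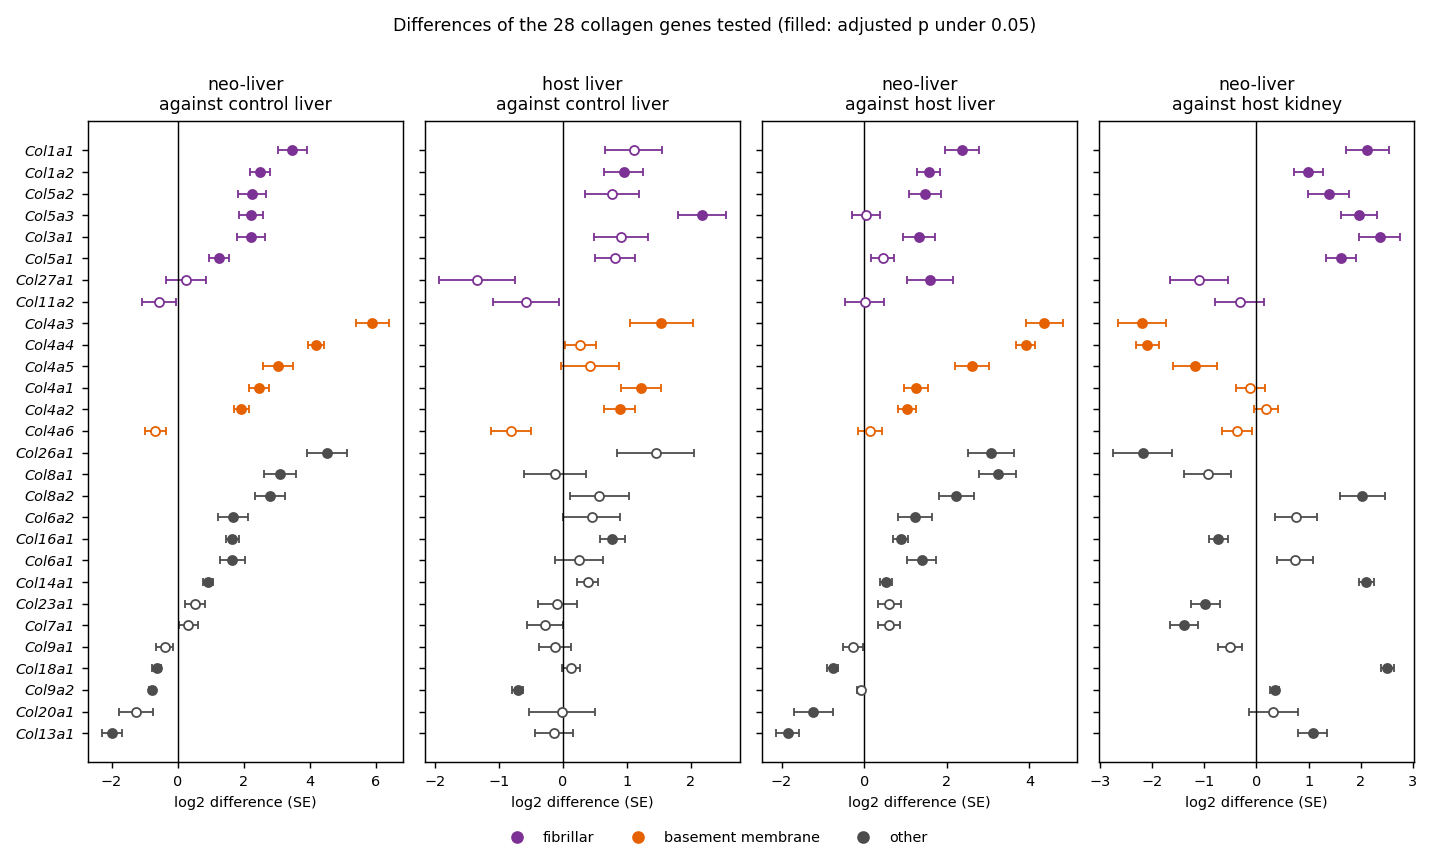
Log2 difference (x axis, with the standard error) of each of the 28 collagen genes tested, in 4 comparisons, coloured by class. Filled points had an adjusted p under 0.05. Most fibrillar and type IV points lie right of 0 in neo-liver against either liver, and in neo-liver against host kidney Col4a3, Col4a4 and Col4a5 lie left of 0.

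Of the 8 fibrillar genes tested, 6 were called higher in neo-liver against control liver and 2 in host liver against control liver. In neo-liver, 5 were called higher against host liver and 6 against host kidney. The rest were not called, apart from 1 called lower in host liver against host kidney. Among all genes, 20.4%, 13.3%, 17.1% and 23.2% were called higher in these 4 comparisons. Each neo-liver count includes Col5a2, which passed the background filter through neo-liver alone. The genes of types I and III, the main fibril collagens of scar tissue, were higher in neo-liver than in each other group. Col1a1, which encodes the α1 chain of type I collagen, read 1.91, 1.58, 1.34 and 2.46 in neo-liver and -1.67, 0.69, -0.47 and -0.72 in host liver. It read -0.96, 0.17, -0.48 and 0.04 in host kidney and -1.65, -1.50 and -1.82 in control liver. Every neo-liver array lay above every other array, and the host liver arrays were spread from the control liver level to well above it. The rise of Col1a1 in neo-liver was 3.47 ± 0.45 against control liver (SE, adjusted p = 3.26e-05), 2.36 ± 0.41 against host liver (adjusted p = 0.000481) and 2.13 ± 0.41 against host kidney (adjusted p = 0.000735). In host liver against control liver the difference of 1.11 ± 0.45 was not called (adjusted p = 0.0857). It was called without host liver array 1 (1.49, adjusted p = 0.0158).

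Col1a2, the gene of the other type I chain, read 3.59, 3.10, 2.86 and 3.98 in neo-liver and 1.32, 2.42, 1.81 and 1.76 in host liver. It read 1.84, 2.60, 2.34 and 2.79 in host kidney and 0.79, 1.15 and 0.70 in control liver. Neo-liver and host liver each lay wholly above control liver, and neo-liver lay above host liver and host kidney without overlap. Col1a2 rose by 2.51 ± 0.30 in neo-liver against control liver (adjusted p = 2.03e-05), by 1.56 ± 0.28 against host liver (adjusted p = 0.00063) and by 0.99 ± 0.28 against host kidney (adjusted p = 0.00917). In host liver against control liver it rose by 0.95 ± 0.30 (adjusted p = 0.0373). That call was lost in 10 of 17 alternatives, without any 1 control liver array and without host liver array 2, 3 or 4 among them (adjusted p 0.0569 to 0.120).

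Col3a1, which encodes type III collagen, read 2.59, 2.19, 1.52 and 2.94 in neo-liver and 0.62, 1.83, 0.78 and 0.74 in host liver. It read -0.69, 0.63, -0.59 and 0.44 in host kidney and 0.25, 0.47 and -0.46 in control liver. Host liver array 2 reached above the lowest neo-liver array, while neo-liver did not overlap host kidney or control liver. Col3a1 rose by 2.22 ± 0.42 in neo-liver against control liver (adjusted p = 0.000715), by 1.32 ± 0.39 against host liver (adjusted p = 0.0137) and by 2.36 ± 0.39 against host kidney (adjusted p = 0.000208). The host liver difference from control liver, 0.91 ± 0.42, was not called (adjusted p = 0.135). Host liver array 1 was the lowest of its group for Col1a1, Col1a2, Col3a1, Col5a1, Col6a1 and Col6a2, and host liver array 2 was the highest for each of these genes. Host liver array 1 also had the lowest 75th percentile of its group, at 287.

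**Figure D2:**
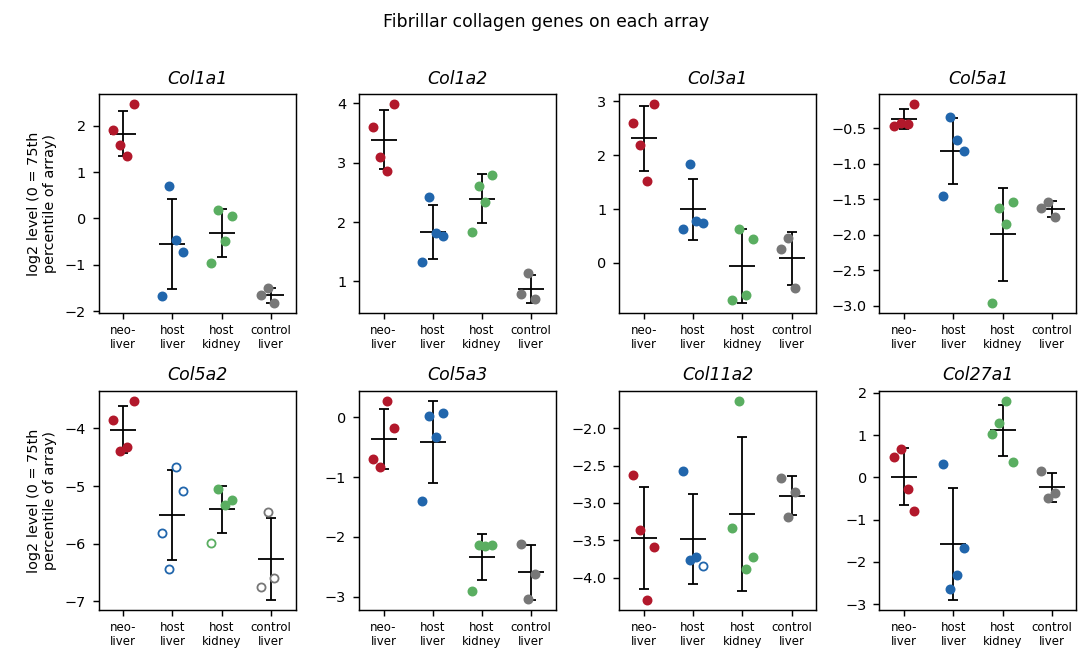
Log2 level (y axis, 0 is the 75th percentile of the array) of the 8 tested fibrillar collagen genes on each array of the 4 groups, with the mean and the SD over arrays. Open points were not well above background. For Col1a1 and Col1a2 the 4 neo-liver arrays lie above all others, and for Col5a3 neo-liver and host liver lie above host kidney and control liver.

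Type V chains join type I chains in thin fibrils and set their diameter. Col5a1 read -0.47, -0.42, -0.44 and -0.16 in neo-liver and -1.46, -0.34, -0.66 and -0.82 in host liver. It read -2.96, -1.62, -1.85 and -1.54 in host kidney and -1.61, -1.54 and -1.75 in control liver. Neo-liver lay above host kidney and control liver but overlapped host liver. Col5a1 rose by 1.26 ± 0.31 in neo-liver against control liver (adjusted p = 0.00403) and by 1.62 ± 0.28 against host kidney (adjusted p = 0.000342). Against host liver the difference was 0.45 ± 0.28 (adjusted p = 0.211), and in host liver against control liver it was 0.82 ± 0.31 (adjusted p = 0.0687).

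Col5a3 was the fibrillar gene with the largest rise in host liver. It read -0.70, -0.83, 0.26 and -0.19 in neo-liver and -1.40, 0.01, -0.33 and 0.06 in host liver. It read -2.91, -2.14, -2.16 and -2.14 in host kidney and -2.12, -3.03 and -2.61 in control liver. The neo-liver and host liver ranges overlapped, and both lay above host kidney and control liver. Col5a3 rose by 2.22 ± 0.37 in neo-liver (adjusted p = 0.000259) and by 2.17 ± 0.37 in host liver (adjusted p = 0.00135), each against the same control livers. Between neo-liver and host liver the difference was 0.05 ± 0.34 (adjusted p = 0.914). Against host kidney it rose by 1.97 ± 0.34 in neo-liver (adjusted p = 0.000307) and by 1.92 ± 0.34 in host liver (adjusted p = 0.000197).

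Col5a2 was dim. It read -3.85, -4.39, -4.32 and -3.53 in neo-liver, where all 4 arrays were above background, and -5.81, -6.43, -4.66 and -5.09 in host liver, where none were. In host kidney it read -5.99, -5.05, -5.33 and -5.24, with 3 arrays above background, and in control liver -6.75, -5.45 and -6.60, with none. It was at least 1.26-fold higher in neo-liver than in control liver, and its difference from host kidney was 1.38 ± 0.39. Since the gene passed the filter through neo-liver alone, these values describe it and no p is given for them. With normexp background correction its differences in neo-liver were 0.12 from control liver and -0.12 from host liver.

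Col27a1, a fibrillar gene known from cartilage, read 0.48, 0.67, -0.28 and -0.79 in neo-liver and 0.31, -2.64, -2.30 and -1.66 in host liver. It read 1.02, 1.30, 1.80 and 0.35 in host kidney and 0.16, -0.48 and -0.38 in control liver. The neo-liver and host liver ranges overlapped through host liver array 1. Col27a1 rose by 1.59 ± 0.55 in neo-liver against host liver (adjusted p = 0.0292), a call that leaving out any of neo-liver arrays 1 and 2 and host liver arrays 2, 3 and 4 removed (adjusted p 0.0564 to 0.0866). It fell by 2.69 ± 0.55 in host liver against host kidney (adjusted p = 0.000623). Col11a2, a cartilage chain, was not called in any comparison (limma's adjusted p 0.376 to 0.987). The other fibrillar genes, Col2a1 and Col11a1, were below background on all 15 arrays, and Col24a1 was above it on 2 host kidney arrays.

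Type IV genes lie in head-to-head pairs. In RefSeq's annotation on GRCm38.p6, Col4a1 and Col4a2 lie on chromosome 8 on opposite strands with transcription starts 21 bases apart, and Col4a5 and Col4a6 lie on chromosome X on opposite strands with starts 1343 bases apart. Col4a3 and Col4a4 share chromosome 1 and their gene spans overlap by 114 bases. The windows of the 2 pairs, 250 bases before to 50 after each start, are shown because Col4a1 and Col4a2 were called together in every comparison that called either, while Col4a5 and Col4a6 were not. That contrast depended on the probe of Col4a6. By the mean of its kept probes, Col4a6 was called in neo-liver against control liver (1.09, adjusted p = 0.0189) and host liver (0.83, adjusted p = 0.0475). It was also called in host liver against host kidney (-1.04, adjusted p = 0.0106), each time with the sign of Col4a5. The windows are chr8:11312777-11313076 (minus strand), chr8:11312555-11312854 (plus strand), chrX:141475169-141475468 (plus strand) and chrX:141474027-141474326 (minus strand). Capitals mark CCAAT or GGGCGG read on either strand.
Col4a1: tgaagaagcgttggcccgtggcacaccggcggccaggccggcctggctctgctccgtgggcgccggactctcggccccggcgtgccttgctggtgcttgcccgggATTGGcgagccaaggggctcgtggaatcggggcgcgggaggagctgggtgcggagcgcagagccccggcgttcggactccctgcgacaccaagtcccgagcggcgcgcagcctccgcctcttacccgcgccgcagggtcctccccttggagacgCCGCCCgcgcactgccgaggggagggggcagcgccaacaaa
Col4a2: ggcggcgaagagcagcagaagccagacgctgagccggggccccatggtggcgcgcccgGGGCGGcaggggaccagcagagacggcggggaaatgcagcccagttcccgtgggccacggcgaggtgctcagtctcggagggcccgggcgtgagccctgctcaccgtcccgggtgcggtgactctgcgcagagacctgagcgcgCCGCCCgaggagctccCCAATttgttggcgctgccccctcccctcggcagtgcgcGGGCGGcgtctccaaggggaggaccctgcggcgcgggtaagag
Col4a5: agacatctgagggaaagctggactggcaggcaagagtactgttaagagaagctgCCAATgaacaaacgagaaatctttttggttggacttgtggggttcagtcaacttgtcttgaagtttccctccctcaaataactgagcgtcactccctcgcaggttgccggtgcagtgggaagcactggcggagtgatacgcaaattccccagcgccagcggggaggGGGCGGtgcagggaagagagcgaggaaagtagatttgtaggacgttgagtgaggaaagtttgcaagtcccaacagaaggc
Col4a6: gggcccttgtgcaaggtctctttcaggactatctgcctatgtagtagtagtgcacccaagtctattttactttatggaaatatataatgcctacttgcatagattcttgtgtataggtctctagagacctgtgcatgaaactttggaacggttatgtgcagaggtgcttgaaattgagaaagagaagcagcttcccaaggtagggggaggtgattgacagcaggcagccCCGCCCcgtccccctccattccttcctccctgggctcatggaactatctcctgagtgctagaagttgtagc

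Col4a1 and Col4a2 windows are rich in G and C (74.0% and 73.7%), against 52.7% for Col4a5 and 48.3% for Col4a6. CCAAT was found in 13 of 38 collagen windows (34.2%), from 35 genes with an entry, and in 37.4% of 32851 promoter windows in the table. GGGCGG was found in 23 of 38 collagen windows (60.5%) and in 35.7% of all windows, and TATAAA in 5 of 38 (13.2%) and 13.6%. Such matches describe the letters only.

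Of the 6 type IV genes, 5 were called higher in neo-liver against control liver, 3 in host liver against control liver and 5 in neo-liver against host liver, and the rest were not called. Against host kidney, 3 were called lower in neo-liver and 5 in host liver, with the rest not called. Of all genes, 20.4%, 13.3% and 17.1% were called higher in the first 3 comparisons. The shares called lower against host kidney were 29.4% in neo-liver and 31.2% in host liver. Col4a1, which encodes the α1 chain found in nearly all basement membranes, read 1.19, 1.93, 2.20 and 2.45 in neo-liver and 0.07, 0.73, 0.72 and 1.24 in host liver. It read 1.54, 2.06, 2.36 and 2.29 in host kidney and -0.47, -0.50 and -0.62 in control liver. Neo-liver and host kidney covered much the same range, host liver lay below most of it, and control liver lay below every other array. Col4a1 rose by 2.48 ± 0.31 in neo-liver (adjusted p = 2.33e-05) and by 1.22 ± 0.31 in host liver (adjusted p = 0.012) against control liver, and by 1.25 ± 0.28 in neo-liver against host liver (adjusted p = 0.00282).

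Col4a2, the partner of Col4a1 in the same triple helix, read 1.51, 2.20, 2.27 and 2.50 in neo-liver and 0.62, 1.45, 1.02 and 1.22 in host liver. It read 1.56, 2.02, 2.05 and 2.12 in host kidney and 0.34, 0.26 and -0.04 in control liver. No neo-liver array overlapped host liver, and no host liver array overlapped control liver. Col4a2 rose by 1.93 ± 0.24 in neo-liver (adjusted p = 2.43e-05) and by 0.89 ± 0.24 in host liver (adjusted p = 0.0171) against control liver, and by 1.04 ± 0.22 in neo-liver against host liver (adjusted p = 0.00194). Against host kidney, neo-liver differed by -0.12 ± 0.28 for Col4a1 (adjusted p = 0.751) and by 0.18 ± 0.22 for Col4a2 (adjusted p = 0.513). Host liver fell by 1.37 ± 0.28 and 0.86 ± 0.22 against host kidney for these genes (adjusted p = 0.000662 and 0.00342). Without control liver array 3, the host liver rise of Col4a2 was 0.78 and no longer called (adjusted p = 0.0750).

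**Figure D3:**
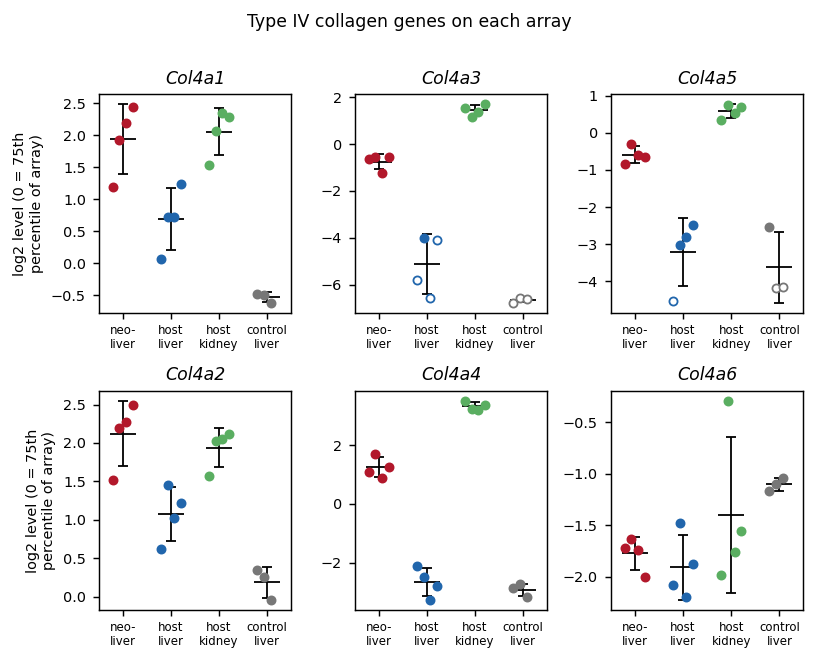
Log2 level (y axis, 0 is the 75th percentile of the array) of the 6 type IV collagen genes on each array of the 4 groups, with the mean and the SD over arrays. Open points were not well above background. Col4a3, Col4a4 and Col4a5 lie in the order host kidney, neo-liver, then host liver and control liver, while for Col4a1 and Col4a2 neo-liver overlaps host kidney.

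The chains of the glomerular network were high in host kidney, intermediate in neo-liver and low in both other livers. Col4a3 read -0.66, -0.55, -1.24 and -0.56 in neo-liver and -5.80, -4.00, -6.55 and -4.09 in host liver, where only array 2 was above background. It read 1.55, 1.15, 1.37 and 1.69 in host kidney and -6.76, -6.58 and -6.61 in control liver, where no array was above background. Neo-liver lay below host kidney and above both livers without overlap. Col4a3 was at least 12.2-fold higher in neo-liver than in control liver (adjusted p = 6.16e-07), rose by 4.36 ± 0.45 against host liver (adjusted p = 6.28e-06) and fell by 2.19 ± 0.45 against host kidney (adjusted p = 0.00116). It was called higher in host liver than in control liver as well (adjusted p = 0.0359), with no fold given because the bound against background was under 1, and that call was lost in 8 of 16 alternatives (adjusted p 0.0742 to 0.148).

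Col4a4 read 1.11, 1.70, 0.90 and 1.27 in neo-liver and -2.11, -2.48, -3.27 and -2.79 in host liver. It read 3.51, 3.26, 3.20 and 3.38 in host kidney and -2.88, -2.75 and -3.17 in control liver. Host kidney, neo-liver and the pair of host liver and control liver formed separate levels. Col4a4 rose by 4.18 ± 0.24 in neo-liver against control liver (adjusted p = 2.01e-08) and by 3.91 ± 0.22 against host liver (adjusted p = 1.83e-08), and it fell by 2.09 ± 0.22 against host kidney (adjusted p = 4.5e-06). In host liver against control liver the difference was 0.27 ± 0.24 (adjusted p = 0.439).

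Col4a5 read -0.85, -0.29, -0.60 and -0.64 in neo-liver and -4.53, -3.03, -2.80 and -2.47 in host liver. It read 0.34, 0.75, 0.54 and 0.71 in host kidney and -2.53, -4.19 and -4.16 in control liver. Host liver array 1 and control liver arrays 2 and 3 were not above background, and neo-liver lay between host kidney and the livers with no overlap. Col4a5 rose by 3.03 ± 0.45 in neo-liver against control liver (adjusted p = 0.000114) and by 2.61 ± 0.42 against host liver (adjusted p = 0.000258). It fell by 1.18 ± 0.42 against host kidney (adjusted p = 0.03), a call that did not hold when any of host kidney arrays 2, 3 and 4 and neo-liver arrays 1, 3 and 4 was left out (adjusted p 0.0523 to 0.0684).

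Col4a6 encodes a chain that partners α5 in some basement membranes. It read -1.72, -1.63, -1.74 and -2.01 in neo-liver and -2.08, -1.48, -2.20 and -1.88 in host liver. It read -1.98, -0.30, -1.76 and -1.56 in host kidney and -1.17, -1.10 and -1.04 in control liver. Neo-liver and host liver lay below control liver without overlap, with differences of -0.67 in neo-liver (adjusted p = 0.0895) and -0.81 in host liver (adjusted p = 0.0757), and neither difference was called. The neo-liver difference was called with normexp background correction (-0.58, adjusted p = 0.0355), in a fit of the 2 groups alone (-0.67, adjusted p = 0.00396) and after subtraction of the kidney share (-1.40, adjusted p = 0.00367). The host liver difference was called in a fit of the 2 groups alone (-0.81, adjusted p = 0.03) and without host liver array 2 (-0.95, adjusted p = 0.049). Its 2 kept probes disagreed in sign against control liver, from -0.67 to 2.85 in neo-liver and from -0.81 to 1.33 in host liver. The mean of the probes was 1.09 higher in neo-liver than in control liver (adjusted p = 0.0189).

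These kidney chains were set beside markers of kidney cells, and the part of such cells in the collagen differences was not tested. The neo-liver signal of Col4a3 above control liver was 22.9%, 24.7%, 15.2% and 24.4% of that of host kidney on arrays 1 to 4, and that of Col4a4 was 20.2%, 31.2%, 17.4% and 22.8%. The share of Col4a5 was larger on each array, at 32.6%, 51.0%, 40.0% and 38.7%. Over 7 podocyte markers the same share averaged 35.0% ± 9.70 (SD, n = 4), over 15 proximal tubule markers 32.3% ± 14.2 and over 20 markers of later segments 19.3% ± 9.34. All 12 podocyte markers listed were tested. In neo-liver against control liver 9 of them were called higher and 1 lower, beside 20.4% and 29.7% of all genes. The summed level of the 12 markers was 18.1 to 25.4 in neo-liver, 5.94 to 11.9 in host liver, 43.9 to 63.0 in host kidney and 10.2 to 12.3 in control liver. No podocyte marker was below background on all neo-liver arrays, while 5 were in host liver and 2 in control liver. The shares of Col4a1 and Col4a2 were larger, at 44.6%, 87.4%, 109% and 133% for Col4a1 and 62.6%, 126%, 135% and 165% for Col4a2.

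As an alternative, each neo-liver array was tested after its kidney share of the mean host kidney signal had been subtracted on the linear scale. Subtracted values were held at a floor, the array's lowest signal above background, or at the measured value where that was lower. The floor was -4.40, -4.87, -5.13 and -5.11 on neo-liver arrays 1 to 4. Col4a4 was then not called against control liver (-0.60, adjusted p = 0.434) or host liver (-0.88, adjusted p = 0.220). Col4a3 differed from host liver by 0.64 (adjusted p = 0.340). The subtracted values of both genes were in part held at the floor, so the size and sign of these differences depend on it. Against control liver the differences were 2.18 for Col4a3 and 1.62 for Col26a1. In part these set the floor against control livers that were below background (means -6.65 and -6.49), so no p is given for them. Col4a1 rose by 1.96 against control liver (adjusted p = 0.000331) and differed by 0.74 from host liver (adjusted p = 0.0544), and Col4a2 rose by 1.55 and 0.66 against these groups (adjusted p = 0.00022 and 0.0256). Col4a5 differed by 1.70 from control liver (adjusted p = 0.00744) and by 1.28 from host liver (adjusted p = 0.0213) and was still called. For the fibrillar genes Col1a1, Col1a2 and Col3a1 the rises against control liver were 3.38, 2.29 and 2.14 after subtraction, and each was still called. The subtraction assumes that kidney cells next to the ectopic tissue express collagen genes as the whole kidney does, which was not tested.

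**Figure D4:**
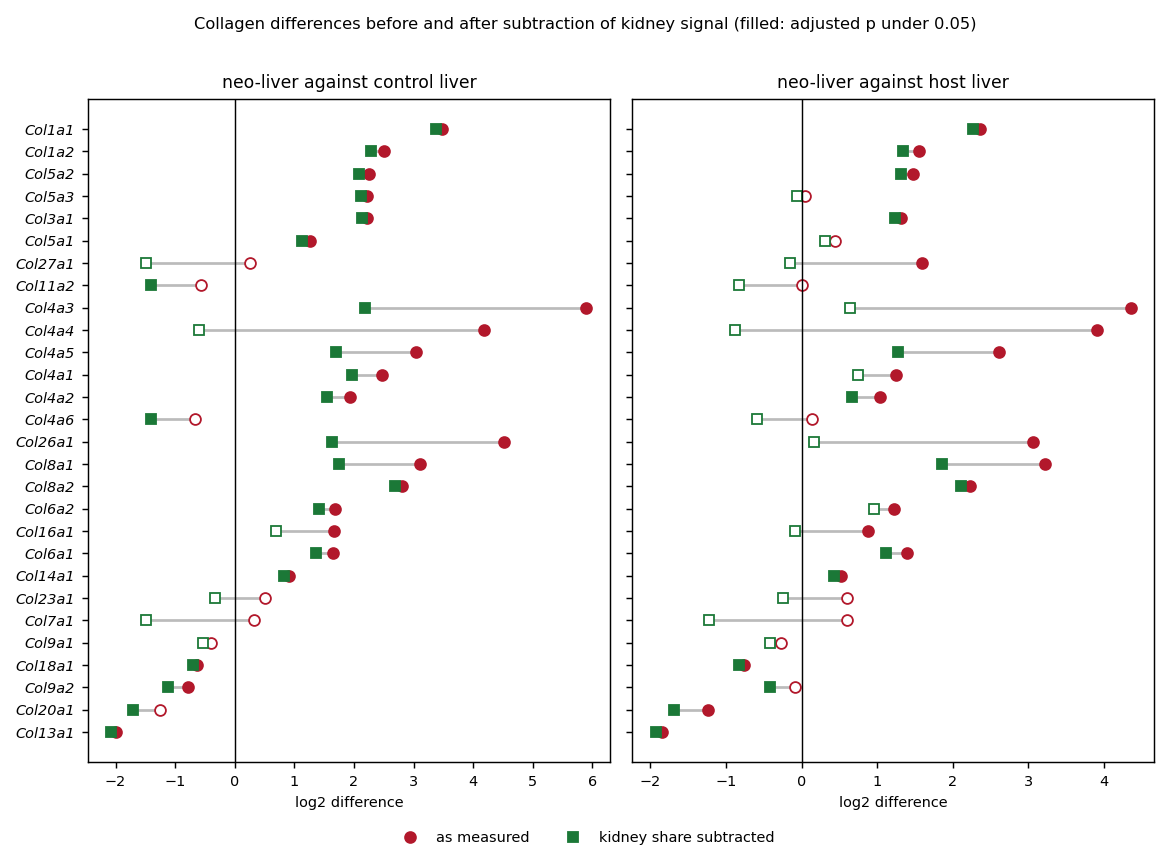
Log2 difference (x axis) of each tested collagen gene in neo-liver against control liver and against host liver, as measured (red circles) and after subtraction of the kidney share (green squares). Filled symbols had an adjusted p under 0.05. The symbols nearly coincide for Col1a1, Col3a1 and Col5a3, and lie far apart for Col4a3, Col4a4 and Col26a1.

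Of the 14 other collagen genes tested, 7 were called higher and 3 lower in neo-liver against control liver, 1 higher and 1 lower in host liver against control liver, 7 higher and 3 lower in neo-liver against host liver, and 5 higher and 4 lower in neo-liver against host kidney. Of all genes, 20.4%, 13.3%, 17.1% and 23.2% were called higher in these 4 comparisons, and 29.7%, 11.2%, 31% and 29.4% lower. Each of the 3 neo-liver counts called higher includes Col8a2, which passed the background filter through neo-liver alone. Type VI collagen forms beaded filaments around cells. Col6a1 read 1.45, 0.78, 1.04 and 1.99 in neo-liver and -0.93, 0.79, 0.33 and -0.54 in host liver. It read 0.14, 0.76, 0.45 and 0.95 in host kidney and -0.22, -0.26 and -0.53 in control liver. Neo-liver lay above control liver and overlapped the highest host liver and host kidney arrays. Col6a1 rose by 1.65 ± 0.38 in neo-liver against control liver (adjusted p = 0.00271) and by 1.40 ± 0.35 against host liver (adjusted p = 0.00541).

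Col6a2, of the same filament, read -1.46, -1.80, -1.56 and -0.55 in neo-liver and -3.64, -1.30, -2.46 and -2.90 in host liver. It read -2.69, -1.76, -2.16 and -1.80 in host kidney and -2.93, -3.10 and -3.04 in control liver. Host liver array 2 lay above 3 of the 4 neo-liver arrays. Col6a2 rose by 1.68 ± 0.44 in neo-liver against control liver (adjusted p = 0.00657) and by 1.23 ± 0.41 against host liver (adjusted p = 0.0247), the second of which was lost on leaving out host liver array 1 or 4, or neo-liver array 4 (adjusted p 0.0607 to 0.0784). Neither was called in host liver against control liver, where Col6a1 differed by 0.25 ± 0.38 (adjusted p = 0.658) and Col6a2 by 0.45 ± 0.44 (adjusted p = 0.488). Col6a3 had no matched probe. Col6a4 was below background on all arrays, Col6a5 was above it on 2 neo-liver, 1 host liver, 1 host kidney and 1 control liver arrays, and Col6a6 on 3 host kidney arrays.

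**Figure D5:**
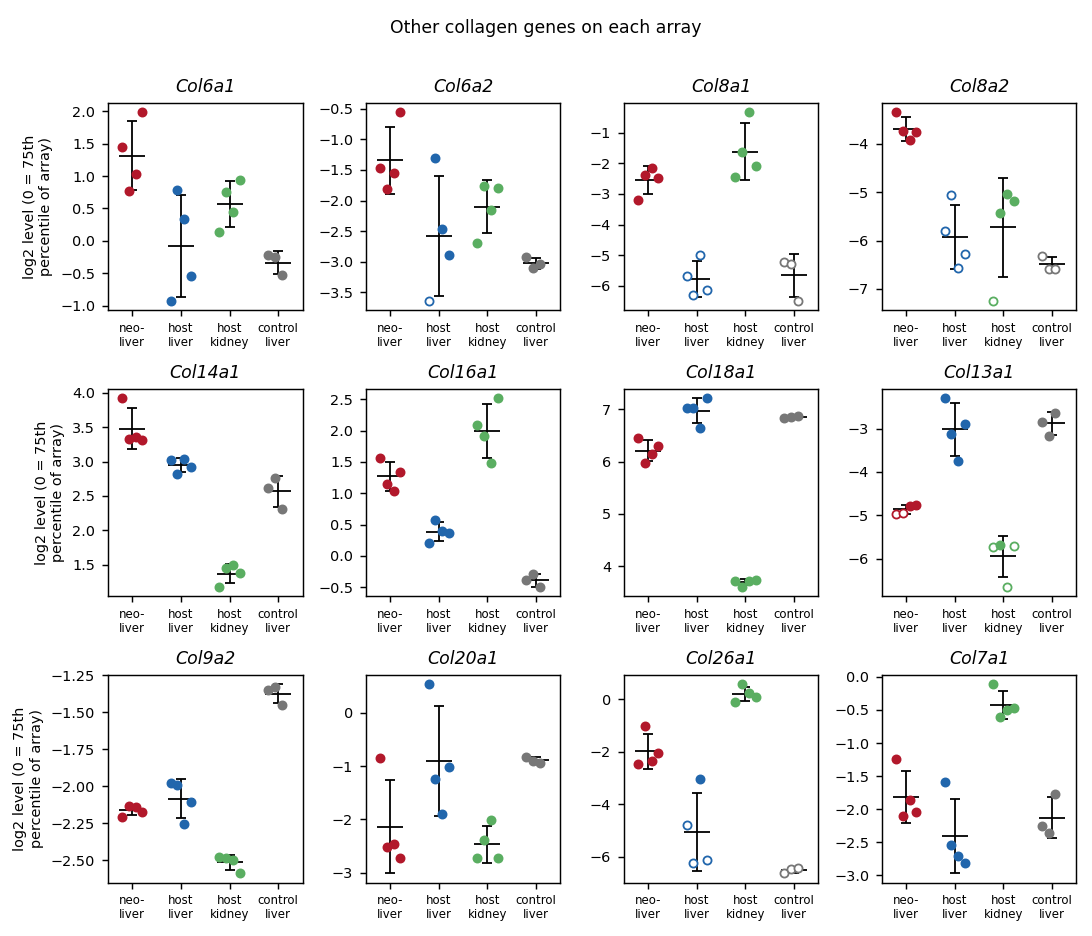
Log2 level (y axis, 0 is the 75th percentile of the array) of 12 other collagen genes on each array of the 4 groups, with the mean and the SD over arrays. Open points were not well above background. Col18a1, Col14a1 and Col13a1 are lowest in host kidney, Col26a1 and Col8a1 are highest there, and Col9a2 is highest in control liver.

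Fibril-associated collagens attach to the surface of fibrils. Col14a1, whose protein binds the surface of type I fibrils, read 3.92, 3.32, 3.37 and 3.31 in neo-liver and 3.03, 2.82, 3.05 and 2.92 in host liver. It read 1.18, 1.44, 1.49 and 1.37 in host kidney and 2.62, 2.76 and 2.31 in control liver. The 4 groups did not overlap, in the order neo-liver, host liver, control liver and host kidney. Col14a1 rose by 0.92 ± 0.16 in neo-liver against control liver (adjusted p = 0.000382), by 0.53 ± 0.15 against host liver (adjusted p = 0.0102) and by 2.11 ± 0.15 against host kidney (adjusted p = 6.1e-08). In host liver against control liver the difference of 0.39 ± 0.16 was not called (adjusted p = 0.0935). With each array centred on its median instead, the host liver difference was called (0.53, adjusted p = 0.0221) and the one between neo-liver and host liver was not (0.33, adjusted p = 0.0630).

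Col9a2, a chain of type IX collagen of cartilage, read -2.20, -2.13, -2.14 and -2.18 in neo-liver and -1.98, -1.99, -2.26 and -2.11 in host liver. It read -2.48, -2.48, -2.50 and -2.59 in host kidney and -1.35, -1.33 and -1.45 in control liver. Control liver stood above all 12 arrays from the hosts. Col9a2 fell by 0.79 ± 0.09 in neo-liver (adjusted p = 1.35e-05) and by 0.71 ± 0.09 in host liver (adjusted p = 0.000251) against control liver, and was the only collagen gene called lower in host liver. Col16a1 rose by 1.66 ± 0.20 in neo-liver and by 0.77 ± 0.20 in host liver against control liver (adjusted p = 2.04e-05 and 0.0145). After subtraction of the kidney share Col16a1 was not called in neo-liver against control liver (0.69, adjusted p = 0.0873) or host liver (-0.085, adjusted p = 0.820), and without control liver array 3 it was not called in host liver (0.72, adjusted p = 0.0572). Its 3 probes disagreed between neo-liver and host liver, with differences from -0.46 to 1.44.

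Col20a1 read -0.84, -2.52, -2.47 and -2.73 in neo-liver and 0.53, -1.24, -1.89 and -1.02 in host liver. It read -2.73, -2.38, -2.01 and -2.73 in host kidney and -0.83, -0.90 and -0.94 in control liver. Array 1 was the highest in neo-liver and in host liver. Col20a1 fell by 1.23 ± 0.47 in neo-liver against host liver (adjusted p = 0.0455), which was not called on leaving out any of host liver arrays 1, 2 and 4 and neo-liver arrays 2, 3 and 4 (adjusted p 0.0526 to 0.127). Against control liver its difference in neo-liver was -1.25 ± 0.51 (adjusted p = 0.0566). Col9a1 was not called in any comparison (limma's adjusted p 0.0821 to 0.755), and outside host kidney it was above background on 1 neo-liver array only. Col9a3 and Col22a1 were below background on all arrays, Col19a1 was above it on 2 host liver arrays, and Col12a1 had no matched probe.

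Multiplexins are basement membrane zone proteins with glycosaminoglycan chains. Col18a1, whose protein is cut to endostatin and which hepatocytes express strongly, read 6.45, 5.96, 6.14 and 6.29 in neo-liver and 7.02, 7.01, 6.64 and 7.21 in host liver. It read 3.73, 3.61, 3.73 and 3.74 in host kidney and 6.83, 6.85 and 6.86 in control liver. Neo-liver was below both other livers without overlap and far above host kidney. Col18a1 fell by 0.64 ± 0.14 in neo-liver against control liver (adjusted p = 0.00182) and by 0.76 ± 0.13 against host liver (adjusted p = 0.000353), and rose by 2.51 ± 0.13 against host kidney (adjusted p = 1.81e-09). After quantile normalization the first pair was not called (-0.11, adjusted p = 0.583, and -0.22, adjusted p = 0.243). The shares of all genes called lower in neo-liver were 29.7% against control liver and 31% against host liver. Hepatocyte markers moved with Col18a1, with 7 of 10 called lower and the rest not called in neo-liver against either liver. Their summed level was 3222 to 4985 in neo-liver, 5848 to 8670 in host liver and 5640 to 6006 in control liver, and their part in the result was not tested.

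Col15a1, the other multiplexin, missed the background filter. It was above background on neo-liver array 1 (-1.08), on host liver arrays 1 and 3 (-2.95 and -3.77) and on host kidney arrays 2 and 3 (-4.47 and -5.46), and on no control liver array. The other 3 neo-liver arrays lay between -5.31 and -5.01.

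Membrane-spanning collagens are surface proteins of cells. Col13a1 read -4.97, -4.95, -4.78 and -4.76 in neo-liver and -2.30, -3.12, -3.76 and -2.90 in host liver. It read -5.73, -5.68, -6.66 and -5.72 in host kidney and -2.84, -3.16 and -2.63 in control liver. The host liver and control liver ranges overlapped and lay above both other groups. Col13a1 fell by 1.99 ± 0.30 in neo-liver against control liver (adjusted p = 0.000128) and by 1.85 ± 0.28 against host liver (adjusted p = 0.000161), with 2 of 4 neo-liver arrays above background. Against host kidney, where 1 of 4 arrays was above background, the difference in neo-liver was 1.08 ± 0.28 (adjusted p = 0.00524), so most of the values behind it were not above background. Col23a1 fell by 0.98 ± 0.28 in neo-liver against host kidney (adjusted p = 0.00936) and was not called against either liver. It was above background on all 4 neo-liver arrays and on no host liver or control liver array. With normexp the difference from host kidney was not called (-0.21, adjusted p = 0.197). Col17a1 was above background on 1 neo-liver and 2 host kidney arrays, and Col25a1 on 1 host kidney and 1 control liver array.

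Type VIII collagen forms the hexagonal network of some basement membranes and is known from vessel walls. Col8a1 read -3.20, -2.38, -2.15 and -2.50 in neo-liver and -5.69, -6.30, -5.01 and -6.15 in host liver. It read -2.43, -1.63, -0.32 and -2.10 in host kidney and -5.21, -5.29 and -6.49 in control liver. No host liver or control liver array was above background, and neo-liver overlapped host kidney. Col8a1 was at least 3.48-fold higher in neo-liver than in control liver (adjusted p = 0.00016), and the bound against host liver was at least 2.67-fold (adjusted p = 8.2e-05). Against host kidney its difference of -0.94 ± 0.45 was not called (adjusted p = 0.0957), but was with the replicate number of the hosts as a block (adjusted p = 0.0223).

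Col8a2 read -3.34, -3.74, -3.92 and -3.76 in neo-liver and -5.80, -5.06, -6.56 and -6.27 in host liver. It read -7.24, -5.43, -5.04 and -5.18 in host kidney and -6.31, -6.58 and -6.58 in control liver. All 4 neo-liver arrays, 3 host kidney arrays and no array of the other groups were above background. Col8a2 was at least 1.58-fold higher in neo-liver than in control liver and at least 1.22-fold higher than in host liver, and its difference from host kidney was 2.03 ± 0.42. Like Col5a2 it passed the filter through neo-liver alone, so these values are given with no p. With no filter on dim probes, the other of its 2 probes stood for the gene as the brighter. By that probe the differences of Col8a2 in neo-liver were -0.19 from control liver, -0.42 from host liver and 0.16 from host kidney. After subtraction of the kidney share, Col8a1 differed in neo-liver by 1.74 from control liver and by 1.86 from host liver. The subtracted values of Col8a1 were in part held at the floor, and no array of either liver was above background. No p is given for these differences for that reason.

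Col26a1 read -2.47, -1.02, -2.35 and -2.06 in neo-liver and -4.78, -6.22, -3.05 and -6.10 in host liver, where 1 array was above background. It read -0.09, 0.57, 0.26 and 0.10 in host kidney and -6.61, -6.44 and -6.41 in control liver, all below background. Col26a1 was at least 5.21-fold higher in neo-liver than in control liver (adjusted p = 4.51e-05), rose by 3.06 ± 0.56 against host liver (adjusted p = 0.000652) and fell by 2.18 ± 0.56 against host kidney (adjusted p = 0.00489). Its share of the kidney signal was 14.6%, 41.5%, 15.9% and 19.7% on neo-liver arrays 1 to 4, and after subtraction the difference from host liver was 0.17 (adjusted p = 0.784). The subtracted values were in part held at the floor.

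Col7a1, the collagen of anchoring fibrils under skin epithelium, read -1.24, -2.10, -1.85 and -2.04 in neo-liver and -1.59, -2.54, -2.70 and -2.81 in host liver. It read -0.11, -0.60, -0.50 and -0.47 in host kidney and -2.25, -2.36 and -1.78 in control liver. Host kidney lay above the rest, and the 3 kinds of liver overlapped. Col7a1 fell by 1.39 ± 0.26 in neo-liver against host kidney (adjusted p = 0.000631), and its difference of 0.60 ± 0.26 from host liver (adjusted p = 0.0760) was called with the replicate block (adjusted p = 0.00712). Col10a1 and Col28a1 were below background on all arrays.

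Genes whose products fold, cut, bind or degrade collagen were counted beside all genes, of which, in neo-liver, 20.4% were called higher and 29.7% lower against control liver, and 17.1% higher and 31% lower against host liver. In host liver against control liver these shares were 13.3% and 11.2%. Of 19 genes of collagen synthesis and folding, 7 were called higher and 5 lower in neo-liver against control liver, 5 higher and 1 lower in host liver against control liver, and 5 higher and 7 lower in neo-liver against host liver. P3h2, a prolyl 3-hydroxylase of type IV collagen, was at least 24.5-fold higher in neo-liver than in control liver (adjusted p = 1.96e-07). Serpinh1, the collagen chaperone HSP47, rose by 2.53 ± 0.40 (adjusted p = 0.000181). Plod2, a lysyl hydroxylase of fibrillar collagen, exceeded host liver in neo-liver by at least 5.05-fold (adjusted p = 1.98e-05) and fell by 2.52 ± 0.36 against host kidney (adjusted p = 5.55e-05).

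Of 13 genes of procollagen processing and crosslinking, 6 were called higher and 2 lower in neo-liver against control liver, 3 higher and 1 lower in host liver, and 4 higher and 2 lower in neo-liver against host liver. Loxl1, a lysyl oxidase-like crosslinking enzyme, rose by 3.87 ± 0.54 in neo-liver against control liver (adjusted p = 6.83e-05), and Pcolce, the enhancer of procollagen cleavage, by 2.33 ± 0.27 (adjusted p = 1.28e-05). Adamts3, a procollagen N-proteinase that passed the filter through control liver alone, was at least 3.54-fold lower in neo-liver, given with no p for that reason. Bmp1, the procollagen C-proteinase, rose by 3.12 ± 0.27 in neo-liver against host kidney (adjusted p = 4.59e-07).

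Of 11 genes of collagen breakdown and its inhibitors, 7 were called higher and 1 lower in neo-liver against control liver, 1 higher in host liver, and 6 higher in neo-liver against host liver. Timp1, an inhibitor of matrix metalloproteinases, was at least 18.0-fold higher in neo-liver and at least 5.45-fold higher in host liver than in control liver (adjusted p = 8.79e-05 and 0.00955). Mmp13, the interstitial collagenase of mouse, was at least 2.43-fold higher in neo-liver (adjusted p = 0.00279). Of 6 collagen receptors, 4 were called higher in neo-liver against control liver and 4 against host liver, and the rest were not called. Ddr1, an epithelial collagen receptor, rose by 4.48 ± 0.21 and 3.06 ± 0.20 against these groups (adjusted p = 2.83e-09 and 5.75e-08) and fell by 1.46 ± 0.20 against host kidney (adjusted p = 3.47e-05). Itga11, a receptor subunit of fibroblasts, rose by 2.06 ± 0.45 in neo-liver against control liver (adjusted p = 0.00202) and by 1.11 ± 0.42 against host kidney (adjusted p = 0.0394).

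Of 15 genes of basement membrane partners of type IV collagen, 11 were called higher in neo-liver against control liver, 5 in host liver against control liver and 10 in neo-liver against host liver, with the rest not called. Against host kidney, 3 were called higher and 8 lower in neo-liver, beside 23.2% and 29.4% of all genes. The laminin chain gene Lamb1 rose by 3.21 ± 0.16 in neo-liver and by 0.77 ± 0.16 in host liver against control liver (adjusted p = 3.51e-09 and 0.00359). Nid1, the linker between laminin and type IV collagen, rose by 2.45 ± 0.29 and 1.45 ± 0.29 (adjusted p = 1.78e-05 and 0.00366). Against host kidney Lamb1 fell by 1.67 ± 0.14 in neo-liver (adjusted p = 5.13e-07), while Nid1 rose by 1.64 ± 0.27 (adjusted p = 0.00021).

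Markers of cells that make collagen were measured beside these results. Of all genes, 20.4% were called higher and 29.7% lower in neo-liver against control liver. These shares were 13.3% and 11.2% in host liver against control liver, and 17.1% and 31% in neo-liver against host liver. Of 12 hepatic stellate cell markers, 4 were called higher and 2 lower in neo-liver against control liver, 2 higher in host liver, and 1 higher and 3 lower in neo-liver against host liver. Their summed level was 118 to 202 in neo-liver, 147 to 183 in host liver, 26.5 to 41.6 in host kidney and 119 to 139 in control liver, and 2 were below background on all host kidney arrays. Of 11 portal fibroblast and mesenchyme markers, 5 were called higher in neo-liver against control liver and 6 against host liver, and the rest were not called. Their summed level was 12.5 to 19.7 in neo-liver, 8.04 to 12.2 in host liver, 15.9 to 18.4 in host kidney and 5.99 to 6.25 in control liver. Of 8 myofibroblast and smooth muscle markers, 3 were called higher in neo-liver against control liver with the rest not called, and 1 was below background on all control liver arrays. Against host liver, 2 were called higher and 1 lower in neo-liver. Their summed level was 140 to 260 in neo-liver, 221 to 459 in host liver, 21.5 to 29.7 in host kidney and 237 to 252 in control liver. The part of these cells in the collagen differences was not tested.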

How the data were processed

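Per the file headers, Agilent Feature Extraction 10.10.1.1 wrote the intensity values of each Cy3-labelled array, of a design annotated on mouse build mm9, and its processed signal had the background removed. The deposited series table holds log2 values. In 99.8% or more of the probes they matched, within 0.01, the log2 processed signal less 1 constant for each array, which lay close to the 75th percentile.

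Spots were averaged to 55681 probes, and those well above background on all arrays of 1 group or more were kept (34990, of which 20389 had a RefSeq symbol on GRCm38.p6). The brightest probe per symbol gave 15620 genes. All 15 arrays entered 1 fit (R 4.3.3, limma 3.58.1), tested two-sided with Benjamini-Hochberg adjustment over all genes. Where a whole group was below background, the brighter group was set against the higher of each dim array's own signal and its lowest signal above background, giving "at least N-fold". The script was tested on simulated data. The number of arrays limits the precision.

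The collagen genes and all lists were chosen with earlier results of these data known. Values on every array are given for lead genes and for up to 5 called members with the largest difference per direction and comparison. Of each partner list the 3 called genes with the largest difference per comparison could be named. Same-numbered host samples correlated best in their deviations from group means (r across genes 0.176 to 0.576), so the number was taken to stand for the mouse in alternatives with a replicate block. Other alternatives changed the normalization, background correction, filter, probe, source of values, arrays in the fit and slide block, or subtracted the kidney share.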

Additional observations from a re-analysis of the deposited data

Results flagged for a closer look

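In groups of 4 arrays, 8 values stood far from the other 3 of their group by Dixon's criterion, of 72 groups tested over 24 collagen genes (11.1%). Chance alone gives about 1 in 20. In neo-liver, array 1 was high for Col14a1, at 3.92 beside 3.31 to 3.37, and for Col20a1, at -0.84 beside -2.73 to -2.47. Neo-liver array 3 was low for Col4a3, at -1.24 beside -0.66 to -0.55, and array 4 was high for Col5a1, at -0.16 beside -0.47 to -0.42.

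Host liver array 2 was high for Col3a1, at 1.83 beside 0.62 to 0.78. In host kidney, array 1 was low for Col5a3, at -2.91 beside -2.16 to -2.14. Array 2 was low for Col18a1, at 3.61 beside 3.73 to 3.74, a gap of little size in a group with a narrow range. Array 3 was low for Col13a1, at -6.66 beside -5.73 to -5.68, where the gene was not above background on that array.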

How the results depend on the processing

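Over the 28 tested collagen genes in 5 comparisons, 2587 alternative values were computed. Of these, 2380 kept their direction and side of the threshold and 72 had no call on either side but the other sign. A further 64 lost a call and 58 gained one without a change of sign, and 13 turned in sign with a call on 1 or both sides. With the kidney share subtracted, the genes called lower numbered 6 in neo-liver against control liver and 11 against host kidney, and 10 were called higher against host liver. The median of all genes was -0.67, -0.56 and -0.73 in these 3 comparisons after subtraction, against -0.15, -0.09 and -0.21 as reported. Col4a4 then differed by -0.60 from control liver and -0.88 from host liver, and Col27a1 by -0.15 and Col16a1 by -0.085 from host liver. The subtracted values of Col4a4 and Col27a1 were in part held at the floor, so these differences depend on it. Normexp gave 6 called lower in neo-liver against control liver and 6 against host liver, differences in host liver against host kidney of 0.80 for Col5a2, 0.66 for Col8a2, 0.74 for Col9a1 and 0.13 for Col23a1, and differences in neo-liver against host liver of -0.12 for Col5a2 and -0.34 for Col23a1. With no filter on dim probes, 17 were called higher in host liver against host kidney and 12 lower in neo-liver against host liver. Col8a2, then read by its other probe, differed in neo-liver by -0.19 from control liver and -0.42 from host liver. Requiring signal above background on every array of both groups left 6 called lower in host liver against host kidney and 10 higher in neo-liver against host liver. A fit of the 2 groups alone gave 5 called lower in neo-liver and 2 in host liver, each against control liver. The mean of all probes gave 1.09 for Col4a6 in neo-liver against control liver. Leaving out 1 array at a time gave 2 to 8 called higher and 1 to 2 lower in host liver against control liver, the lowest count without control liver array 3. For these changes the cause was not tested beyond the fewer genes or samples of the stricter filter and smaller fits. The replicate block changed 2 calls among the host tissues, Col8a1 in neo-liver against host kidney (-0.94, adjusted p = 0.0223) and Col7a1 against host liver (0.60, adjusted p = 0.00712), and no other collagen gene's. Quantile normalization moved the median of all genes in neo-liver against control liver to -0.02, against -0.15 as reported, and median centring moved that of host liver against host kidney to 0.36, against 0.14. Signal over background limits Col5a2, Col8a1, Col8a2, Col4a3, Col26a1, Col23a1 and Col9a1, which were below it in whole groups.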

Other observations

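Col15a1, which encodes the multiplexin chain that was not tested, read -1.08 on neo-liver array 1 and -2.95 on host liver array 1, the highest array of each of those groups, and -5.76 on host kidney array 1, where it was not above background. Arrays numbered 1 were also the highest of neo-liver, host liver and host kidney for Col7a1, the gene of anchoring fibril collagen, at -1.24, -1.59 and -0.11. These genes were singled out after their values were seen, and no test was made.

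Reln and Colec10, both markers of quiescent stellate cells, were high in neo-liver beside host kidney. Colec10 was at least 141-fold higher in neo-liver than in host kidney (adjusted p = 4.2e-12), and Reln at least 14.3-fold (adjusted p = 1.8e-07). Against host liver Colec10 fell by 2.00 ± 0.27 in neo-liver (adjusted p = 6.2e-05), while Pdgfrb, on the same stellate cell list, rose by 1.52 ± 0.17 (adjusted p = 1.3e-05). Of the 12 markers on that list, 1 was called higher and 3 lower in this comparison, beside 17.1% and 31% of all genes. In neo-liver against host kidney 10 were called higher and 1 lower, beside 23.2% and 29.4%.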
